A study of Rattus norvegicus with 12 samples.

Results

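The genes described here are 9 markers of the cerebellum, the brain region that lies directly behind the inferior colliculus (IC), measured in IC tissue of rats with 1 deafened ear. Gabra6, Cbln3, Fat2, Cbln1, Neurod1, Zic1 and Zic2 are used as markers of granule cells, and Pcp2 and Pcp4 as markers of Purkinje cells. Probes with exactly 1 gene symbol were searched for these names, and the brightest probe by its mean over all arrays was to be kept. Each of the 9 had a single such probe, so brightness made no selection, and all 9 members were found among 18166 genes. The members were chosen by name with earlier results of these same log2 intensities known, among them the high values on right control arrays. Their differences are therefore given as descriptions, and a gene passed only by a p-value adjusted over all 18166 genes.

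The animals were rats of the SD strain, 20 with ablation of the right cochlea and 20 with a sham operation that cut behind the ear but left the bulla undrilled, each kept for 2 weeks. Each of 4 groups has 3 of the 12 arrays: left IC of deaf rats, left IC of control rats, right IC of deaf rats and right IC of control rats. Input from an ear reaches mainly the IC of the opposite side, here the left. Age and sex are not given in the labels, nor is the number of rats behind an array, so p-values measure the spread between arrays, which may be partly technical. The series title and the array descriptions name hippocampus, and the descriptions call the deaf group a noise group, whereas array titles, tissue entries and the design name IC and cochlear ablation. Whether a left and a right array of the same number come from the same rats is not stated; the SEs of differences between sides treat them as separate.

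Values are log2 intensities on 1-colour arrays, and a difference is a difference of group means of 3 arrays on that scale with its standard error (SE). Genes were not ranked by level, since probes differ in brightness. The IC transcription factor gene Tfap2d was at 9.39 to 9.79 and the vesicular glutamate transporter 2 gene Slc17a6 at 9.56 to 9.99 over the 12 arrays. Right control 3 stood apart: it held the highest of the 12 values for 15.2% of all genes and the lowest for 16.7%. Where a member's difference given here turned its sign or moved by over 1.5 times without it, that value is given too.

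Granule cells are the small glutamatergic neurons that fill the inner layer of the cerebellar cortex, and Purkinje cells are its large GABAergic output neurons. Granule cell axons, the parallel fibres, excite Purkinje cells. The secreted cerebellin Cbln1 joins the synapse between them by linking neurexins to the glutamate receptor delta 2. Gabra6 encodes the α6 subunit of the GABA-A receptor, which in the adult brain is nearly restricted to cerebellar and cochlear nucleus granule cells. Several members are not confined to the cerebellum: Zic1 and Zic2 are also active in meningeal cells and dorsal midbrain, Cbln1 in other brain nuclei, and Pcp4 in many forebrain and brainstem neurons.

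The sequence before the start site is given for Gabra6, Fat2 and Neurod1, members that shared their array of highest value. It is from RefSeq, build GRCr8, all on the minus strand, read 5′ to 3′. Pcp2 shared that array too, but only 7 bases of its window lie outside the gene, so it is not printed. Whether these members share regulation was not tested. The windows hold 250 bases before the start site, and bases inside the gene's annotated span are not printed. This leaves chr10:27327338-27327484 for Gabra6, chr10:39957028-39957152 for Fat2 and chr3:84770455-84770704 for Neurod1. Capitals mark matches to the E-box CANNTG, the motif of NeuroD and other basic helix-loop-helix factors, and to the short NFI motif TTGGC or its reverse complement GCCAA.
Gabra6: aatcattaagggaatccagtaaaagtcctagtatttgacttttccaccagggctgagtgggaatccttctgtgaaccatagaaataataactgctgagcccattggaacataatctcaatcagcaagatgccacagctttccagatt
Fat2: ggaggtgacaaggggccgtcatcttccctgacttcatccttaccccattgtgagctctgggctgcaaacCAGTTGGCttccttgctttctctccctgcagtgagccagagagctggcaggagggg
Neurod1: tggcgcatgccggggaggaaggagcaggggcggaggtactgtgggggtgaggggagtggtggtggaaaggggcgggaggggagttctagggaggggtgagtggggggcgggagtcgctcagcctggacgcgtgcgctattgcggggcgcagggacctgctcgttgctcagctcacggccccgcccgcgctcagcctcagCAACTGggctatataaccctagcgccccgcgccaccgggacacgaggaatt
In the Fat2 stretch the E-box CAGTTG overlaps the NFI motif TTGGC. The full Gabra6 window holds 1 NFI motif, inside the annotated gene span and so not shown, and 0 E-boxes. Of 33469 rat windows of 250 bases searched on both strands, 65.5% held an E-box and 40.3% the short NFI motif. Windows were found for 6 of the 9 members and not for Cbln3, Cbln1 and Zic1. An E-box lay in those of Fat2, Neurod1, Pcp2 and Pcp4, and the NFI motif in those of Gabra6, Fat2 and Pcp4. The E-box form CAGATG, searched for as the NeuroD form, had 0 sites in each of the 6 windows, against 14% of rat windows with one.

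Gabra6 (Entrez 29708), the granule cell receptor subunit gene, was at 3.10, 2.54 and 3.82 on left deaf arrays 1 to 3, against 3.06, 2.98 and 3.01 on left control arrays. On the right it was at 2.51, 3.19 and 2.83 on deaf arrays, against 3.86, 3.99 and 5.30 on control arrays. All 3 right control arrays lay above the other 9, though right control 1 was barely above left deaf 3. The lower quartile of each array's values was 3.78, and outside right control only left deaf 3 exceeded it for Gabra6; no detection calls were used, so how far these values stand above background was not tested.

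Cbln3 (Entrez 501998), a cerebellin gene of granule cells, was at 4.72, 4.54 and 4.88 on left deaf arrays, against 4.56, 4.22 and 4.78 on left control arrays. On the right it was at 4.29, 4.37 and 4.13 on deaf arrays, against 5.34, 4.78 and 6.23 on control arrays. The left groups overlapped and the right groups did not, with right control 3 again highest. Fat2 (Entrez 65048), which encodes a giant protocadherin of granule cell parallel fibres, was at 4.64, 4.18 and 4.01 on left deaf arrays, against 4.12, 4.24 and 4.70 on left control arrays. On the right Fat2 was at 4.30, 4.47 and 4.01 on deaf arrays, against 5.03, 4.64 and 5.76 on control arrays. The right groups were separate by the gap between right deaf 2 and right control 2, and the left groups overlapped.

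Neurod1 (Entrez 29458), a transcription factor gene of differentiating granule cells, was at 4.45, 4.23 and 4.51 on left deaf arrays, against 4.57, 4.52 and 4.23 on left control arrays. On the right it was at 4.53, 4.55 and 4.53 on deaf arrays, against 4.88, 4.58 and 5.44 on control arrays. Right control 2 lay close to the right deaf arrays, and right control 3 was highest. Cbln1 (Entrez 498922), the cerebellin that bridges the parallel fibre synapse, was at 5.81, 5.75 and 6.21 on left deaf arrays, against 5.98, 6.09 and 5.66 on left control arrays. On the right Cbln1 was at 5.91, 5.51 and 5.88 on deaf arrays, against 6.02, 6.39 and 6.22 on control arrays. Cbln1 was highest on right control 2, not on right control 3, and its right groups were separate by a small gap.

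Zic1 and Zic2 encode zinc-finger factors of granule cell precursors and dorsal neural tissue. Zic1 (Entrez 64618) was at 5.86, 6.98 and 6.25 on left deaf arrays, against 6.41, 6.37 and 6.54 on left control arrays. On the right it was at 6.19, 6.64 and 6.49 on deaf arrays, against 7.05, 6.25 and 6.48 on control arrays. Its groups overlapped on both sides, and its highest values were on right control 1 and left deaf 2. Zic2 (Entrez 361096) had its highest values on the same arrays, 7.17 on right control 1 and 7.13 on left deaf 2. Zic2 ranged over 6.61 to 7.13 in left deaf, 6.45 to 6.73 in left control, 6.25 to 6.86 in right deaf and 6.49 to 7.17 in right control arrays, with overlap on both sides.

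Pcp2 (Entrez 304195), a Purkinje cell gene for a G-protein modulator, was at 4.64, 4.38 and 4.42 on left deaf arrays, against 4.56, 4.43 and 4.83 on left control arrays. On the right it was at 4.82, 4.12 and 5.10 on deaf arrays, against 5.19, 4.78 and 5.74 on control arrays. Right deaf 3 lay above right control 2, so the right groups overlapped, and right control 3 was again highest. Pcp4 (Entrez 25510), which encodes a calmodulin-binding peptide, was at 10.77, 10.58 and 10.67 on left deaf arrays, against 10.61, 10.88 and 10.68 on left control arrays. On the right Pcp4 was at 10.71, 10.67 and 10.60 on deaf arrays, against 10.64, 10.69 and 10.37 on control arrays. Pcp4 varied least of the 9, over 0.51 in all, and right control 3 was its lowest array.

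**Figure D1:**
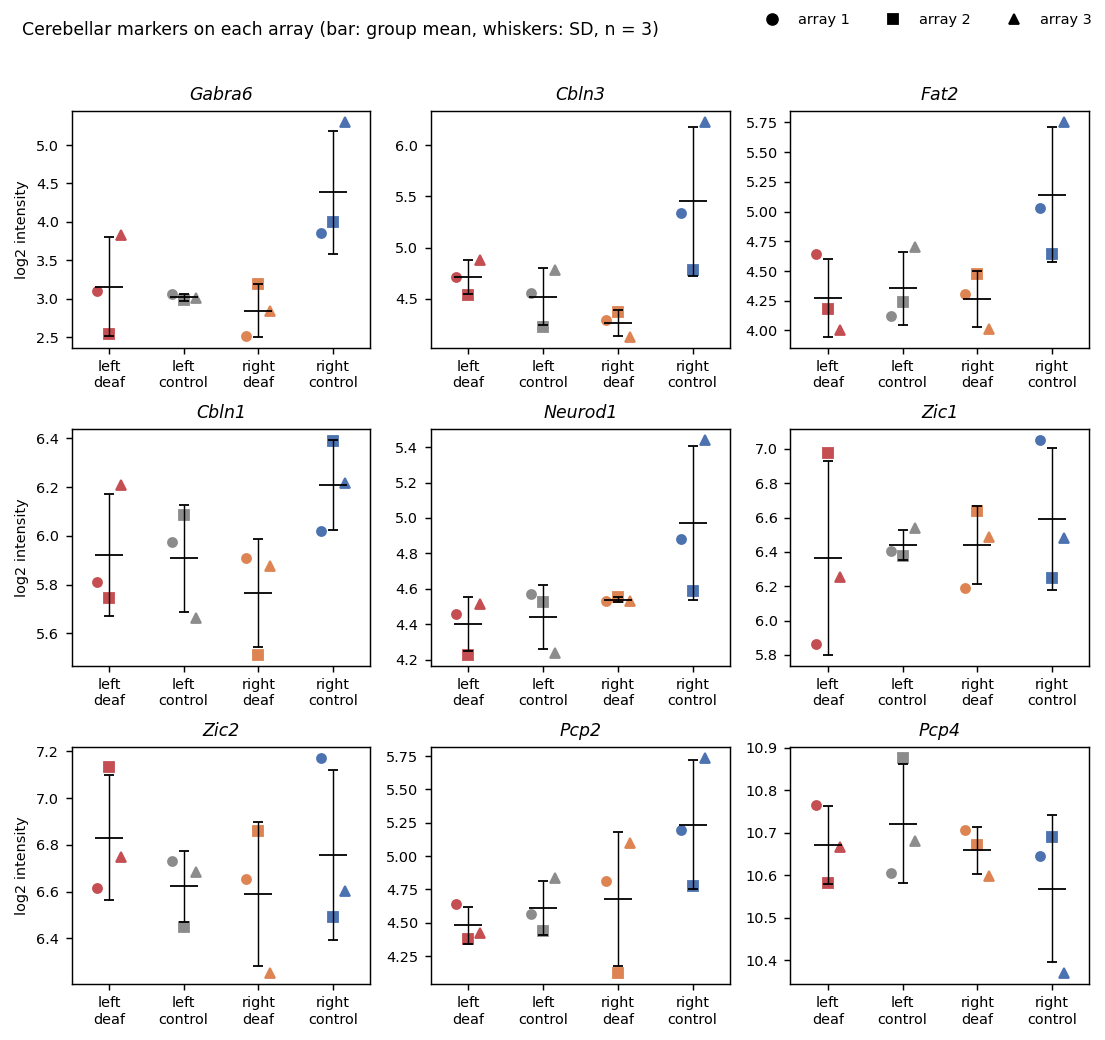
Log2 intensity of each of the 9 members (1 panel each, own scale) on the 12 arrays by group, with circle, square and triangle for arrays 1, 2 and 3, the bar for the group mean and whiskers for the SD (n = 3). Right control 3 is the highest array for Gabra6, Cbln3, Fat2, Neurod1 and Pcp2 and the lowest for Pcp4.

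The array with the highest value thus split the members. It was right control 3 for 5 of the 9 (55.6%, against 15.2% of all genes), right control 1 for Zic1 and Zic2, right control 2 for Cbln1 and left control 2 for Pcp4. Right control had the highest mean of the 4 groups for 7 members, the exceptions being Zic2, which was highest in left deaf at 6.83, and Pcp4, which was highest in left control at 10.72. For Gabra6 and Neurod1 all 3 right control arrays lay above all 9 other arrays, as they did for 105 of 18166 genes. Gabra6 averaged 3.15 ± 0.64 in left deaf, 3.02 ± 0.041 in left control, 2.84 ± 0.34 in right deaf and 4.38 ± 0.80 in right control arrays (SD, n = 3 each), so the first 3 did not differ beyond their spread. In bulk tissue, fewer cells of a type and less RNA per cell cannot be told apart.

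On the right, the side of the operated ear, 8 of the 9 members (49.5% of all genes) had lower means in deaf than in control arrays. The differences were -1.54 (SE 0.37) for Gabra6, -1.19 (SE 0.28) for Cbln3, -0.88 (SE 0.26) for Fat2, -0.56 (SE 0.26) for Pcp2, -0.44 (SE 0.16) for Cbln1 and -0.43 (SE 0.18) for Neurod1. Zic1 (-0.15, SE 0.26) and Zic2 (-0.17, SE 0.20) differed by less than their SE, and Pcp4 was at 0.091 (SE 0.10). The median over the members was -0.44, against 0.0014 over all genes. The Gabra6 difference was the most negative of all 18166 genes. With limma 0 of the 9 passed (adjusted p = 1.00), as did 0% of all genes, and 5 had an unadjusted p under 0.05, against 4.31% of all genes. Right deaf arrays lay wholly below right control arrays for 5 of 9 members, against 3.84% of all genes, and wholly above for 0 of 9 (3.64%); since these values were known when the list was drawn up, nothing is read from the count. With right control 3 left out the median was -0.31, with Gabra6 at -1.08, Cbln3 at -0.80, Fat2 at -0.57, Pcp2 at -0.31, Neurod1 at -0.20 and Pcp4 at -0.0074, and 9 of 9 means were lower. With right controls 1 and 3 both left out, so that right control 2 stood alone, the median was -0.10, Gabra6 stayed at -1.15 and Cbln1 at -0.62, whereas Cbln3 was at -0.52, Fat2 at -0.38, Pcp2 at -0.10 and Neurod1 at -0.047. Without right control 1 Zic1 and Zic2 turned to 0.075 and 0.040, and without right deaf 2 Pcp2 was at -0.28.

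**Figure D2:**
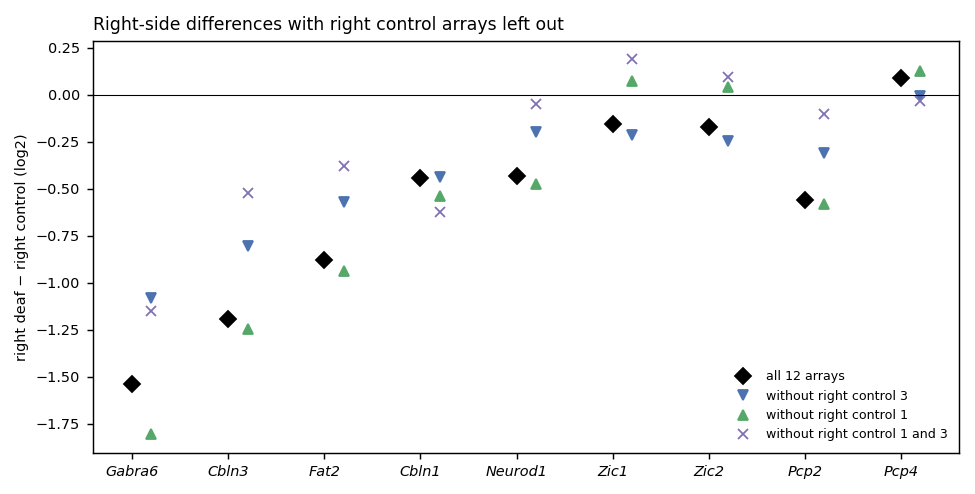
Right deaf minus right control difference (log2, vertical axis) of each member in the 4-group limma model, with all 12 arrays and with right control arrays left out. Gabra6 stays between -1.80 and -1.08, while Neurod1 and Pcp2 come close to 0 without right controls 1 and 3.

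On the left, across from the operated ear, the groups overlapped for all 9 members. Deaf minus control differences ran from -0.13 for Pcp2 to 0.21 for Zic2, and were 0.14 for Gabra6 (SE 0.37), 0.19 for Cbln3 (SE 0.28) and -0.079 for Fat2 (SE 0.26). The means of 5 members were lower (51.8% of all genes) and of 4 higher, and the median of -0.043 compares with -0.0051 over all genes. With limma 0 of 9 passed (adjusted p = 1.00), as did 0% of all genes, and 0 had an unadjusted p under 0.05 (3.69% of all genes). Deaf arrays lay wholly below control arrays for 0 of 9 members (5.7% of all genes) and wholly above for 0 (4.61%). The sign of Gabra6 turned to -0.20 without left deaf 3. Signs also turned for Fat2, Cbln1, Neurod1, Zic1 and Pcp4 when a single array was left out. Those of Cbln3, Zic2 and Pcp2 held. Cbln3 was at 0.044 without left control 2, Zic2 at 0.059 without left deaf 2 and Pcp2 at -0.018 without left control 3. The test of the difference between the sides, left change minus right change, gave 1.68 (SE 0.52) for Gabra6, 1.38 (SE 0.40) for Cbln3 and 0.80 (SE 0.37) for Fat2. Without right control 3 these were 1.22, 0.99 and 0.49. With limma 0 of 9 passed (adjusted p = 1.00), as did 0% of all genes, and 2 had an unadjusted p under 0.05 (3.42%); 1 of 9 was below 0 (51% of all genes). Averaged over both sides, deaf minus control was -0.70 (SE 0.26) for Gabra6 and -0.50 (SE 0.20) for Cbln3, and without right control 3 it was -0.47 and -0.30. With all arrays 7 of 9 members were lower (50.6% of all genes). With limma 0 of 9 passed (adjusted p = 0.998), as did 0% of all genes, and 3 had an unadjusted p under 0.05 (4.53%).

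In control rats, means were lower in left than in right IC for 8 of 9 members (50.4% of all genes), with Gabra6 at -1.37 (SE 0.37), Cbln3 at -0.94 (SE 0.28), Fat2 at -0.79 (SE 0.26), Pcp2 at -0.63 (SE 0.26), Neurod1 at -0.53 (SE 0.18) and Cbln1 at -0.30 (SE 0.16). This comparison and the right-side one share the 3 right control arrays. With limma 0 of 9 passed (smallest adjusted p = 0.934), as did 0% of all genes, and 5 had an unadjusted p under 0.05 (4.95%). Left control arrays lay wholly below right control arrays for 3 of 9 members, against 4.84% of all genes, and wholly above for 0 (4.96%). Without right control 3 Gabra6 was at -0.91, Cbln3 at -0.55, Fat2 at -0.48, Pcp2 at -0.38 and Neurod1 at -0.29, and without left control 3 Cbln1 was at -0.18. In deaf rats, where no control array enters the difference, left minus right was 0.31 (SE 0.37) for Gabra6, 0.45 (SE 0.28) for Cbln3, 0.011 (SE 0.26) for Fat2 and -0.14 (SE 0.18) for Neurod1. The Gabra6 difference turned to -0.025 without left deaf 3. Left deaf lay wholly above right deaf for Cbln3 alone among the 9 (3.73% of all genes) and wholly below for Neurod1 alone (4.58%). Means were lower on the left for 3 of 9 (52.2% of all genes). With limma 0 of 9 passed (adjusted p = 1.00), as did 0% of all genes, and 0 had an unadjusted p under 0.05 (3.34%).

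**Figure D3:**
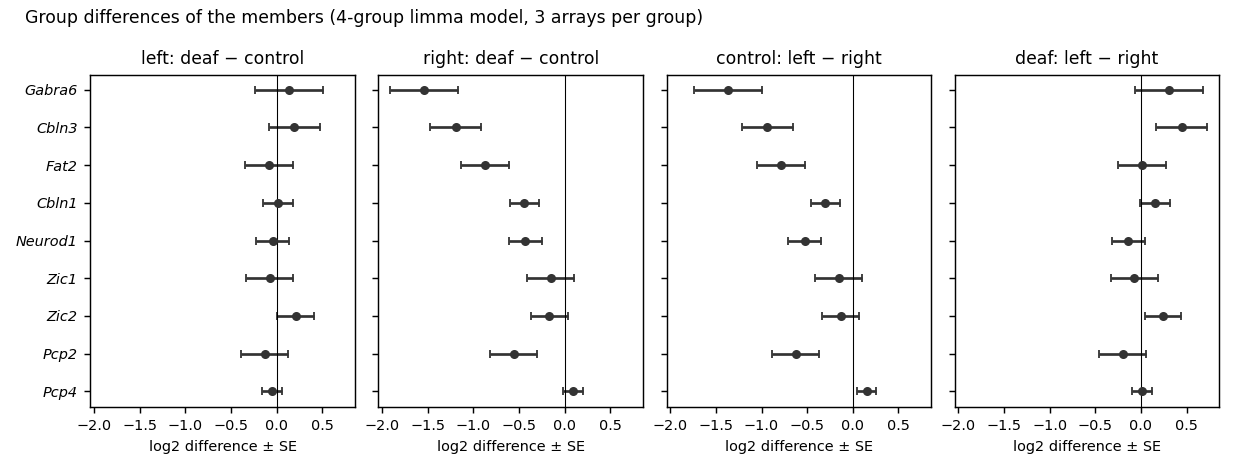
Differences of group means (log2, horizontal axis, whiskers SE) of the 9 members in 4 comparisons from the 4-group limma model. Gabra6, Cbln3 and Fat2 lie furthest below 0 in both comparisons that contain the right control arrays, and near or above 0 in the other comparisons.

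Other granule cell genes gave a mixed picture. Of 22 listed, 19 were measured; 13 had lower means in right deaf than in right control arrays, the median was -0.074 (0.0014 over all genes), and 0 passed. The mean level of the 19 ran from 6.25 to 6.31 in right deaf and from 6.36 to 6.47 in right control arrays. Slc17a7, the vesicular glutamate transporter 1 gene of granule cells and of cortical and cochlear nucleus neurons, was at 4.90, 4.86 and 4.65 on right deaf arrays, against 7.14, 5.81 and 5.999 on right control arrays (-1.51, SE 0.26; limma adjusted p = 1.00). Slc17a7 was highest on right control 1, where Gabra6 was the lowest of the right controls. Etv1, a transcription factor gene of maturing granule cells, was at -0.30 (SE 0.094), and Neurod2 at -0.39 (SE 0.16), or -0.23 without right control 3. Pax6 was at -0.42 (SE 0.21), and its right groups overlapped, with right deaf 3 at 4.83 and right control 2 at 4.37. Gabrd, the δ subunit that pairs with α6 in granule cells, was at -0.11 (SE 0.15), and Grin2c, an NMDA receptor subunit gene of mature granule cells, at -0.12. Barhl1 (0.073), Reln (0.017), Unc13c (-0.017) and Cdh15 (0.16) did not share the direction or size of Gabra6. The Cdh15 difference rests on right control 3, at 4.05, against 4.60 and 4.62 on right controls 1 and 2. On right deaf arrays Cdh15 was at 4.50 to 4.68. The genes with an unadjusted p under 0.05 were Slc17a7, Etv1 and Neurod2, of which Slc17a7 and Neurod2 also stand in the list of cortical and hippocampal genes.

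Other Purkinje cell genes differed little on the whole: of 25 listed, 20 were measured, 14 had lower means in right deaf arrays, and the median was -0.042. The largest difference was that of Car8, which encodes a carbonic anhydrase-related protein of Purkinje cells. Car8 was at 6.15, 6.29 and 6.31 on right deaf arrays, against 6.51, 6.35 and 7.48 on right control arrays (-0.53, SE 0.23; limma adjusted p = 1.00). Without right control 3 the Car8 difference was -0.18. Foxp2, a transcription factor gene of Purkinje cells and other neurons, differed the other way, at 8.18, 8.16 and 8.23 on right deaf arrays, against 7.86, 8.06 and 8.08 on right control arrays (0.19, SE 0.082; limma adjusted p = 1.00), and was at 0.12 without right control 1. Car8 and Foxp2 were the 2 genes of the list with an unadjusted p under 0.05. Right control 3 was the highest array for 8 of the 20 (40.0%, against 15.2% of all genes), among them Car8, Itpr1 at 8.34 and Homer3 at 7.03. Without right control 3 the count of lower means was 11 of 20 and the median -0.0041. Calb1 (-0.043), Pvalb (0.018) and Aldoc (-0.0098), which IC neurons or astrocytes also express, were nearly level. Of the 13 genes of other cerebellar cells, 8 had lower means on the right (median -0.038), and the largest difference was that of Slc6a5, the glycine transporter 2 gene, at -0.64 (SE 0.46), which turned to 0.069 without right control 1.

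Of 4 genes of cerebellins and neurexins 2 had lower means in right deaf arrays (median 0.016), and of 9 relatives of the members by family 6 did (median -0.092). Cbln2, a cerebellin gene of other brain regions, was at 8.20, 7.99 and 8.43 on right deaf arrays, against 7.87, 8.17 and 8.15 on right control arrays (0.14, SE 0.13), and Cbln4 was at -0.081 (SE 0.13). The neurexin genes Nrxn2 and Nrxn3 were at 0.092 and -0.059. Of 10 other GABA-A receptor subunit genes, 4 had lower means in right deaf arrays, and their differences lay between -0.21 for Gabre and 0.11 for Gabrg3. Zic4 was at -0.18 and Zic5 at -0.074. None of these passed.

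Some genes of other lists were high on individual right control arrays, and their part in the results was not tested. On right control 1, Slc6a5, counted above with other cerebellar cells, was at 7.23, against 4.65 to 5.64 on the other 11 arrays. On the same array the cortical interneuron gene Lamp5 was at 7.84, against 6.16 to 6.93. The hindbrain gene Hoxa5 was at 4.16 there, against 2.73 to 3.12, values below the arrays' lower quartile of 3.78. Other genes of the same lists were not high there: Nptx1 of the cortical and hippocampal list, at 7.73, and Hoxb5 of the hindbrain list, at 3.84, had their lowest value of the 12 arrays on right control 1. It was the highest array for 4 of 13 cortical and hippocampal genes and 2 of 10 hindbrain genes, against 10.3% of all genes. It was the lowest for 1 of each, against 8.48% of all genes. Slc17a7, which is also in the granule list, was among the 4. Right control 3, highest for Gabra6 and Car8, had the lowest Slc6a5 value of the 12 arrays. Of 10 hindbrain genes 8 had lower means in right deaf arrays (median -0.22), as did 11 of 13 cortical and hippocampal genes (median -0.16). The mean level of the hindbrain list ran from 4.28 to 4.43 in right deaf and from 4.51 to 4.60 in right control arrays, and that of the forebrain list from 5.45 to 5.55 in right deaf and from 5.75 to 5.83 in right control arrays. Of 16 IC and tectal genes 6 had lower means in right deaf arrays (median 0.026), and their mean level ran from 7.54 to 7.64 in right deaf and from 7.48 to 7.74 in right control arrays. In control rats, left minus right was below 0 for 12 of 13 cortical and hippocampal genes (median -0.27) and 9 of 10 hindbrain genes (median -0.25), a comparison that shares the right control arrays. On the left, deaf minus control was below 0 for 5 of 13 (median 0.027) and 3 of 10 (median 0.024). No gene of these lists passed. Choroid plexus and myelin lists were also measured: 3 of 8 choroid genes and 11 of 11 myelin genes had lower means in right deaf arrays, with medians of 0.095 and -0.098.

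**Figure D4:**
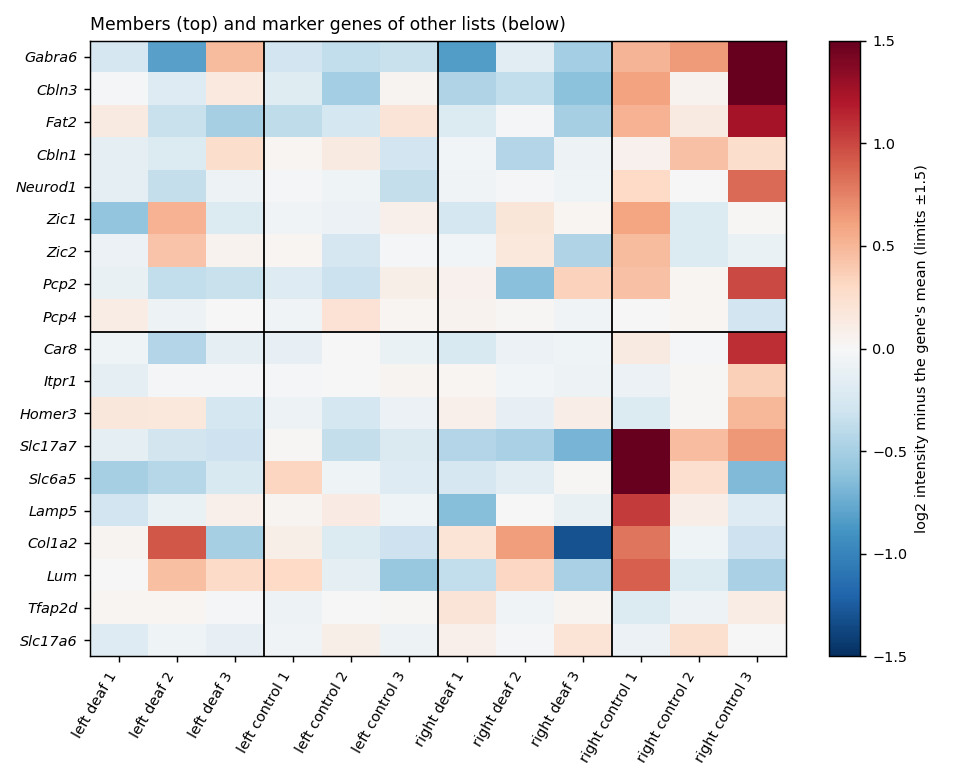
Log2 intensity minus each gene's mean over the 12 arrays (colour, limits ±1.5) for the 9 members above the line and for genes of other lists below it, with arrays in columns by group. Right control 3 is high for Gabra6, Cbln3, Fat2, Neurod1, Pcp2 and Car8, and right control 1 for Slc17a7, Slc6a5 and Lamp5.

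Across the 12 arrays the members fell into sets, described here without a test, since the arrays share groups and 1 array weighs heavily. Gabra6 and Cbln3 had Pearson's r = 0.90 and Spearman's rho = 0.82, and r was 0.75 without the 2 arrays farthest from the Gabra6 median. Cbln3 and Neurod1 had r = 0.80, but -0.27 without the 2 arrays farthest from the Cbln3 median, so that relation rests on those arrays. Zic1 and Zic2 had r of 0.014 and -0.024 with Gabra6 and 0.67 with each other. Zic2 and the mean of 14 meningeal genes had r = 0.88 and rho = 0.77 (0.75 without the 2 arrays farthest for Zic2), and for Zic1 r was 0.55 and rho 0.27. Gabra6 and the meningeal mean had r = -0.20. The meningeal score, the mean of gene-centred log2 values, was 0.62 on left deaf 2 and 0.55 on right control 1, the highest arrays of both Zic genes, and -0.33 on right control 3. The meningeal genes had lower means in right deaf arrays for 8 of 14 (median -0.031), a median that became 0.22 when right control 1 was left out and -0.24 when right control 3 was. On the left all 14 had higher means in deaf arrays (median 0.27), as did 8763 of 18166 genes, where Zic2 was at 0.21 and Zic1 at -0.076. The meningeal score was -0.073, 0.62 and -0.13 on left deaf arrays, against 0.13, -0.23 and -0.39 on left control arrays. The left difference thus leaned on left deaf 2, without which Zic2 was at 0.059 and Zic1 at -0.38. In control rats, left minus right was below 0 for 12 of 14 (median -0.21), where Zic2 was at -0.13 and Zic1 at -0.15, and 0 of the 14 passed in any of these comparisons. Without right control 1 left minus right in control rats turned to 0.074 for Zic2 and 0.076 for Zic1. Without right control 3 it was -0.21 for Zic2.

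The genes most like Gabra6 among 1198 genes with an SD over the arrays of at least 0.3 were Cbln3, Car8 (r = 0.87), Neurod1 (0.86), Ttpa, the α-tocopherol transfer protein gene (0.79), Taar7h (0.78) and Fat2 (0.78), each over 12 arrays. Without right control 3 these r were 0.72, 0.64, 0.58, 0.68, 0.74 and 0.42 in the same order. The genes most like Pcp2 were C1h2orf78l1 (r = 0.80), Dynll1l (0.79), Car8 (0.78), 4930474N05Rikl2 (0.77), Lyl1 (0.76) and Pax6 (0.75). Without right control 3 the r with Pcp2 were 0.73, 0.63, 0.45, 0.71, 0.62 and 0.70 in that order. Taar7h ran over 2.12 to 3.47 and 4930474N05Rikl2 over 2.56 to 3.61, below the arrays' lower quartile of 3.78. How far these 2 stand above background was not tested. Among the members, Neurod1 stood at rank 9 of 1198 for likeness to Pcp2, Fat2 at rank 18 and Cbln3 at rank 25. Pcp4, Cbln1 and Zic2, with SDs of 0.12, 0.25 and 0.26 over the arrays, were not among the genes compared.

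**Figure D5:**
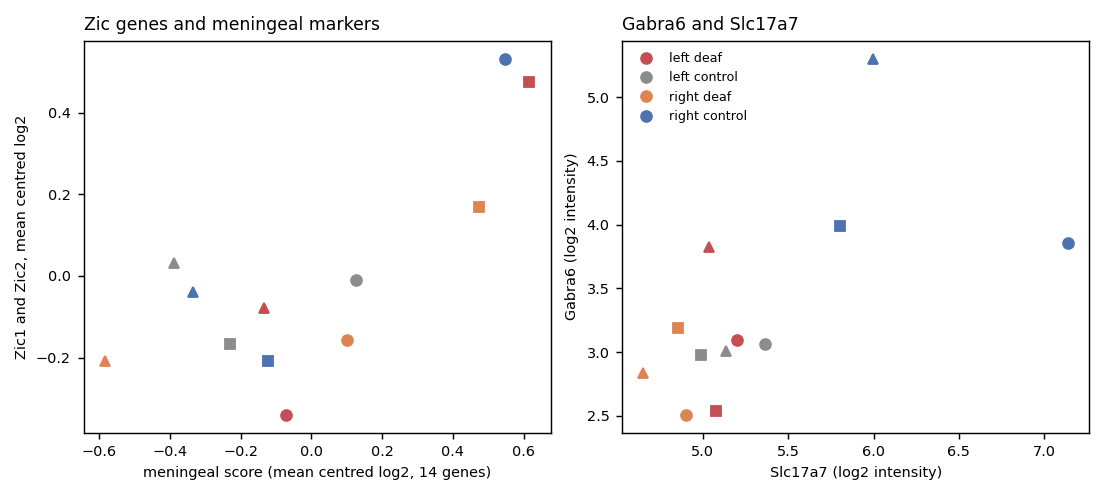
Left, mean centred log2 value of Zic1 and Zic2 against the meningeal score on the 12 arrays; right, Gabra6 against Slc17a7 in log2 intensity, coloured by group, with circle, square and triangle for arrays 1, 2 and 3. Left deaf 2 and right control 1 are high for Zic genes and meningeal markers, and right control 3 leads for Gabra6 (5.30) while right control 1 leads for Slc17a7 (7.14).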

How the data were processed

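Per the labels' protocols, total RNA was extracted with Trizol, converted to single-stranded cDNA, fragmented, and labelled with biotin using an Affymetrix reagent. The authors deposited log2 intensities that are already comparable between arrays: values ran from 1.33 to 13.11 with a median of 5.34 on each array. No label used here names the software that made them. Precision is limited by how many arrays there are.

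Of 29489 probes, 18511 were annotated with 1 symbol, 575 with several and 10403 with none; the brightest probe was kept for each of 18166 genes. With limma 3.58.1 (R 4.3.3), a linear model was fitted on 4 group means over all 12 arrays, with no filter and no covariate, two-sided, with Benjamini-Hochberg adjustment over all genes and a threshold of 0.05. The fit was tested on simulated data. Numbers were not taken as pairs, since the labels state no pairing. Deviations of same-numbered arrays from their group means had r between -0.19 and 0.16. Differently numbered arrays were not compared, so these r cannot show whether left and right arrays share rats.

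The members, the 12 other gene lists and the tests were chosen with earlier results of these data known. Up to 4 genes per list were named by the size of the right deaf minus control difference, the granule, Purkinje and cerebellin lists in full as needed, and 6 genes by likeness to Gabra6 and to Pcp2. Olfactory, vomeronasal, taste receptor, microRNA and unnamed genes were skipped by their symbols, and Taar7h was not among those skipped. Tfap2d, Slc17a6, Nptx1, Hoxb5 and genes given by array were singled out after their values were seen. Windows before start sites are from RefSeq, build GRCr8.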

Additional observations from a re-analysis of the deposited data

How the results depend on the processing

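The count of members past the adjusted threshold was 0 of 9 in each of the 6 comparisons and stayed 0 with quantile normalization, with arrays centred on their medians, with every probe tested, with probes averaged per gene, with a robust trended variance, with arrays weighted and, where it applies, with only the groups compared in the fit. Among genes above the median level it was also 0, but that filter removes all members except Zic1, Zic2 and Pcp4. Leaving out each array in turn gave 0 to 0 in every comparison. With the replicate number as a block the count was 0 as well; the block changed no call. At an unadjusted p under 0.05 limma gave 5 of 9 for deaf minus control on the right, 3 for the mean of both sides, 5 for left minus right in control rats, 2 for the interaction and 0 for the other comparisons. Of 1134 member differences under alternatives, 1122 moved by less than 1 SD between arrays. Many of these could not move, so nothing is read from that count. A difference stays fixed when an array outside the compared groups is left out. It also stays fixed under the probe settings, since each member has 1 probe, and where only the variance estimate changes. The 12 that moved more were those of Cbln3, Fat2, Neurod1 and Pcp2 without right controls 1 and 3. They belong to deaf minus control on the right, left minus right in control rats and the interaction. In that setting a single right control array is assumed to vary like the other groups. How far the dim Gabra6 values stand above background was not tested, and 3 arrays per group limit all differences.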
